A study of Sus scrofa with 4 samples.

Results

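CD80, CD86, CD40, CD40LG, CTLA4, CD274, FOXP3 and CD47 are genes of T cell costimulation, of immune checkpoints and of regulatory T cells, and their expression was compared between the thymus of IL2RG KO and WT pigs. The members were all probes of the array whose RefSeq accession belonged to these 8 genes, which gave 13 of 43603 probes, in 8 of the 3020 genes that could be named. The rule itself uses gene identity and no measured value, but the members were chosen with earlier results of these data known. CD80, CD86 and CD40 had 2 probes each, FOXP3 had 3, and CTLA4, CD274, CD40LG and CD47 had 1 each.

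A T cell that meets its antigen needs a second signal from the presenting cell to respond in full. CD80 and CD86 on that cell give this signal through CD28 on the T cell, and CTLA4 binds the same ligands more tightly and holds the response back, while CD274 (PD-L1) restrains T cells through the receptor PD-1. CD40 is carried by B cells, dendritic cells, macrophages and thymic epithelium and answers to CD40LG on activated T cells. FOXP3 is the transcription factor that defines regulatory T cells, which arise in the thymus under costimulation and in response to IL-2, and CD47 is a surface protein of most cells that restrains phagocytes through SIRPA.

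IL2RG encodes the common gamma chain, the receptor subunit shared by IL-2, IL-7, IL-15 and related cytokines. Thymus RNA was hybridised to 4 porcine arrays, 2 from KO and 2 from WT animals, and all were Minnesota miniature swine. The KO animals carried the genotype IL2RG+/-, with 1 allele disrupted by TALENs, and were cloned by nuclear transfer from targeted cell colonies. They came from the few KO pigs that kept a rudimentary thymus, so that they stand for this subset, and the age and treatment of the array animals are not given in the sources used here. Slide 1 held KO replicate 1 with WT replicate 2, and slide 2 held the other two samples. The labels number the samples without saying how the animals relate, so that p values measure only the spread between these samples.

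Each value below is the log2 signal of a probe minus the 75th percentile of its array, called the normalized log2 signal. A probe was tested when both arrays of at least 1 genotype were well above background, and was called different at an adjusted p under 0.05 (limma, Benjamini-Hochberg over all 31959 probes tested) with a fold change of at least 2. An exact two-sided permutation test of 1 probe cannot go below p = 0.333 with 2 arrays per genotype, and limma borrows the spread of other probes.

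The 2 arrays of the KO group correlated at r = 0.994 over all probes tested and the 2 WT arrays at r = 0.984, against 0.886 to 0.919 between genotypes. IL2RG was lower in KO with both of its probes, with log2 fold changes of -3.41 ± 0.27 and -4.38 ± 0.26 (± SE, adjusted p = 0.00255 and 0.00208 by limma, n = 2 per genotype), and the second was -2.61 with the normexp background correction. The thymus also differed in its cell type markers. All 13 tested thymocyte markers were lower in KO. Their median log2 fold change was -2.59, and their summed signal, in multiples of the 75th percentile of the array, was 37.0 and 37.7 in KO against 230 and 311 in WT. RAG1 and PTCRA, which developing thymocytes express, had log2 fold changes of -7.67 and -7.73, with KO arrays 2.96-fold and 2.70-fold apart. RAG2 was lower too but well above background on 1 of the 2 KO arrays. All 9 tested macrophage markers were higher, with a median of 2.24 and a summed signal of 276 and 357 in KO against 58.1 and 75.1 in WT. The 3 endothelial and 4 fibroblast markers were all higher, as were 3 of 4 epithelial markers, and the 7 proliferation markers were all lower. Of 3 B cell markers MS4A1 and CD79A were lower and BLNK was higher, and XCR1, the only dendritic cell marker tested, was higher by 1.14 log2 units. In bulk tissue, fewer cells of a type and less RNA per cell cannot be told apart, and the part of these markers in the results on the 8 genes was not tested.

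Of the 13 probes, 11 were tested and 7 of these were called, all higher in KO, where 34.0% of all probes tested were called and 21.0% were higher. None was lower, against 13.0% of all probes. The 7 probes belonged to CD80, CD86, CD40 and CD274, the genes of the presenting cell side, and every one of the probes of these 4 genes was called. By the probe with the highest signal of each gene, 4 of the 8 genes were higher and 4 were not called, against 25.2% higher and 12.5% lower among the 2702 named genes tested. The median log2 fold change of the 8 genes was 0.94, beside 0.0025 over all named genes tested and -0.054 over all probes tested. CTLA4, CD40LG, FOXP3 and CD47 were not called. In 9 of the 11 tested probes the KO and WT arrays did not overlap, beside 78.7% of all probes (37.9% with KO above and 40.9% with KO below).

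**Figure D1:**
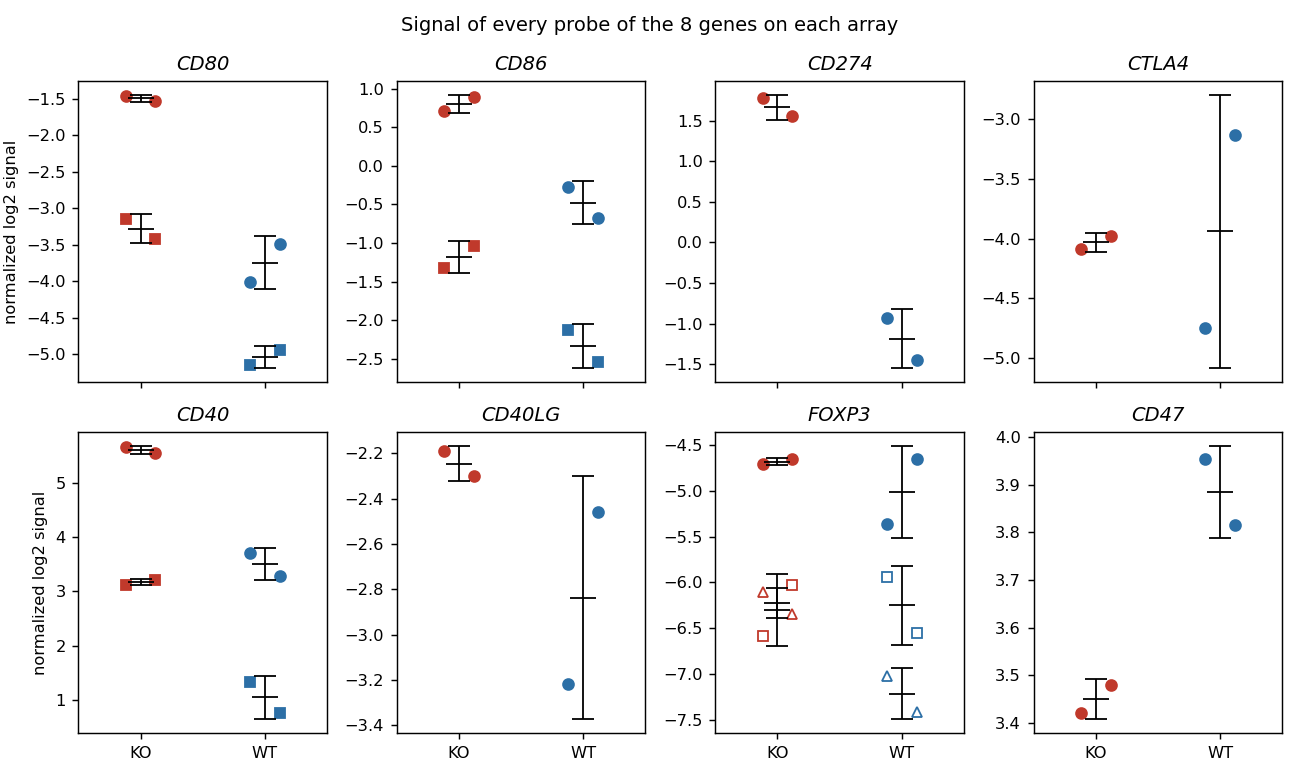
Normalized log2 signal of every probe of the 8 genes, with a panel and an axis range for each gene. Red and blue symbols are the single arrays of KO and WT (replicate 1 left, replicate 2 right), circles, squares and triangles are different probes of a gene, open symbols are probes that were not tested, and black marks are the mean ± SD of 2 arrays. The KO arrays lie above the WT arrays for CD80, CD86, CD274 and CD40, and the WT arrays of CTLA4 lie on both sides of the KO arrays.

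Among the ligands of CD28 and CTLA4, CD80 was higher in KO with both probes. Its brighter probe had normalized log2 signals of -1.46 and -1.53 in KO replicates 1 and 2 and of -4.00 and -3.49 in WT replicates 1 and 2. Both KO arrays lay well above both WT arrays. This was a log2 fold change of 2.25 ± 0.23 (± SE, 95% interval 1.63 to 2.87), or 4.76-fold, with an adjusted p of 0.00396 by limma. The difference was 2.03 on slide 1 and 2.47 on slide 2. The other probe had signals of -3.14 and -3.42 in KO and -5.14 and -4.93 in WT. Its change was 1.76 ± 0.19 log2 units (adjusted p = 0.00443 by limma), in the same direction and of a size within the intervals of both probes. The normexp background correction adds an offset of 50, which shrinks the fold changes of dim spots. Under it both probes moved by more than 1.5 times, to log2 fold changes of 1.24 and 0.65. The second then missed the 2-fold limit, and its scanned signals were 86.1 and 64.3 in KO and 17.5 and 22.6 in WT.

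CD86, the second ligand of the pair, was higher by a smaller amount. Its brighter probe read 0.72 and 0.89 in KO and -0.28 and -0.68 in WT, with no overlap. This gave a log2 fold change of 1.28 ± 0.21 (95% interval 0.72 to 1.84), or 2.43-fold, with an adjusted p of 0.0110 by limma. The other probe read -1.32 and -1.03 in KO and -2.13 and -2.54 in WT, again without overlap, and gave 1.15 ± 0.22 (adjusted p = 0.0172 by limma). Both calls of CD86 were lost when either KO array was left out, where the spread within a genotype comes from the WT arrays alone. With 1 array left out, the change ranged from 1.08 to 1.48 for the brighter probe and from 0.95 to 1.36 for the other. Without WT replicate 2, and with scaling to the median or the normexp correction, the other probe was at 0.95, 0.89 and 0.88, under the 2-fold limit. The difference in change between CD80 and CD86 was not tested.

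CD274, the ligand of PD-1, had the largest change of the 8 genes. Its probe read 1.78 and 1.56 in KO and -0.93 and -1.44 in WT. The genotypes were clearly apart, and as scanned the spot had signals of 2599 and 2028 in KO against 324 and 254 in WT. Between the genotypes the log2 fold change was 2.86 ± 0.24 (95% interval 2.22 to 3.50), or 7.24-fold, with an adjusted p of 0.00282 by limma. It was 3.22 on slide 1 and 2.49 on slide 2. The change exceeded that of 95.4% of all probes tested, and 11.2% of all probes were called at 4-fold or more in this direction. PDCD1LG2 (PD-L2), the other ligand of PD-1 and the neighbour of CD274 in the RefSeq gene order of the Sscrofa11.1 assembly, read 0.045 and -0.097 in KO against -2.89 and -3.11 in WT. It was higher by 2.98 ± 0.17 log2 units (adjusted p = 0.00205 by limma). PDCD1, the gene of PD-1 itself, had no named probe.

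CD40, the receptor of CD40LG, was higher in KO with both probes. Its brighter probe read 5.65 and 5.54 in KO and 3.70 and 3.29 in WT, and the other read 3.12 and 3.20 in KO and 1.33 and 0.76 in WT. Both separated the genotypes. The log2 fold changes were 2.10 ± 0.21 (95% interval 1.55 to 2.66) and 2.12 ± 0.24, with adjusted p values of 0.00370 and 0.00498 by limma. The probes differed by 0.016 log2 units in their change, and the brighter probe gave 4.30-fold. On slides 1 and 2 the difference of the brighter probe was 2.37 and 1.84.

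**Figure D2:**
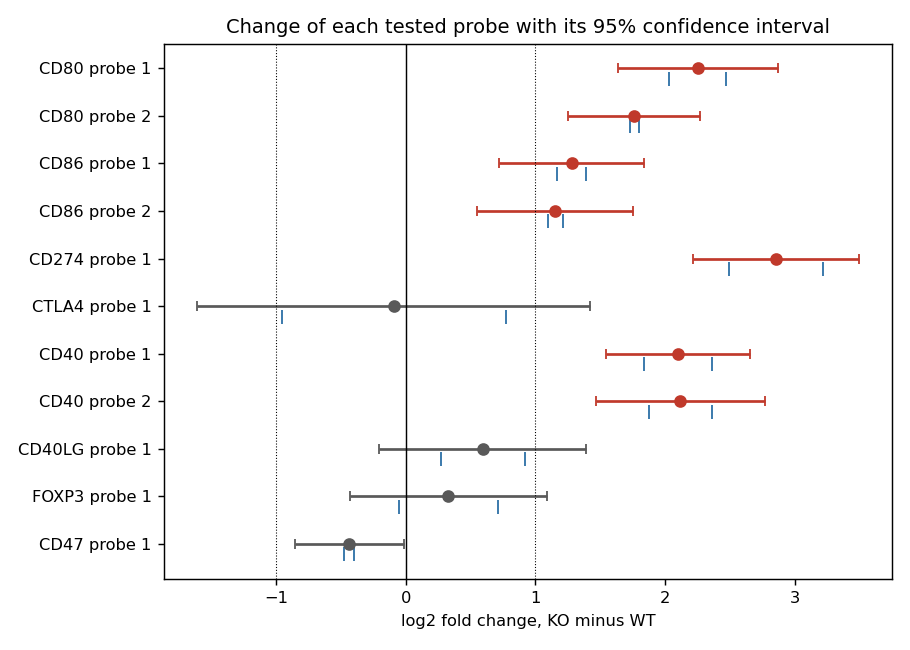
Log2 fold change, KO minus WT, of the 11 tested probes (points) with 95% confidence intervals from limma. Red points were called higher, grey points were not called, blue ticks are the differences within slide 1 and slide 2, and dotted lines mark 2-fold. All 7 probes of CD80, CD86, CD274 and CD40 lie above 1, and the ticks of CTLA4 lie at -0.96 and 0.77, on both sides of 0.

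On the T cell side, CD40LG, the ligand of CD40, was not called. Its probe read -2.19 and -2.30 in KO and -3.22 and -2.46 in WT. The KO arrays were the higher ones, but WT replicate 2 lay close to them and the 2 WT arrays were 1.69-fold apart. The difference of the means was 0.59 ± 0.30 (95% interval -0.21 to 1.39), with an adjusted p of 0.168 by limma. It was 0.27 on slide 1 and 0.92 on slide 2. Without WT replicate 2 it was 0.97, still under 2-fold, and without WT replicate 1 it was 0.21.

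CTLA4, the inhibitory receptor for CD80 and CD86, showed no direction. Its probe read -4.09 and -3.98 in KO and -4.75 and -3.13 in WT. Both KO arrays lay between the WT arrays, which were 3.06-fold apart, while the KO arrays were 1.08-fold apart. Over all probes tested, 8.79% had WT arrays at least 2-fold apart. The log2 fold change was -0.092 ± 0.57 (95% interval -1.61 to 1.42, adjusted p = 0.906 by limma), so that a change of 2-fold in either direction lay within the interval. Within slide 1 the difference was -0.96 and within slide 2 it was 0.77. Left out in turn, the WT arrays reversed the sign, with -0.90 without WT replicate 1 and 0.71 without WT replicate 2, neither at 2-fold. The spot was dim, with scanned signals of 44.5 and 43.7 in KO and 23.0 and 78.8 in WT. The scanner software gave errors of 3.51 for WT replicate 1 and 8.26 for WT replicate 2, which cover the spot alone and not the spread between samples. The distance between the WT arrays was larger for CTLA4 than for 97.5% of all probes tested, and 2.42% of all probes were at least 2-fold higher in WT replicate 2 than in WT replicate 1, against 6.37% in the opposite direction.

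FOXP3 was not called and was dim. The 1 probe tested read -4.71 and -4.66 in KO and -5.37 and -4.66 in WT. WT replicate 2 was level with the KO arrays and WT replicate 1 was below them. The log2 fold change was 0.33 ± 0.28 (95% interval -0.43 to 1.09), with an adjusted p of 0.386 by limma. It was -0.052 on slide 1 and 0.71 on slide 2, and -0.026 without WT replicate 1 and 0.68 without WT replicate 2. Its sign also turned with quantile normalization (-0.0094) and with normexp (-0.080). The scanned signals of 29.0, 27.2, 15.0 and 27.4 (KO replicates, then WT replicates) were 1.27 to 3.12 times the lowest signal of a probe well above background on the same array. Of the other FOXP3 probes, 1 was not well above background on any array and 1 only in KO replicate 1, and neither was tested.

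CD47, the brake on phagocytes, was well above background on all 4 arrays and was not called. Its probe read 3.42 and 3.48 in KO and 3.95 and 3.82 in WT. The KO arrays were both slightly lower, and the groups did not overlap. The log2 fold change was -0.43 ± 0.16 (95% interval -0.86 to -0.014), or 1.35-fold lower in KO (adjusted p = 0.0816 by limma). The slides gave -0.40 and -0.47. With each array scaled to its median, which lowers the median of all probes by 0.27 log2 units, it was -0.70 (adjusted p = 0.0217 by limma), still under 2-fold. SIRPA, the receptor of CD47 on macrophages, read 0.18 and 0.13 in KO and -0.41 and -0.80 in WT. It was higher by 0.76 ± 0.20 log2 units (adjusted p = 0.0369 by limma), under the 2-fold limit and so not called.

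The WT arrays also differed from each other in the members. Set as WT replicate 2 minus WT replicate 1, the difference was 1.61 log2 units for CTLA4, 0.76 for CD40LG and 0.71 for FOXP3. For CD86, CD274 and CD40 it was -0.40, -0.51 and -0.41 with the brighter probes, while CD80 was at 0.52 and 0.21 with its 2 probes. CD47, which was not called either, had the smallest difference of the 8 genes by their brighter probes, at -0.14. Both WT arrays were scaled alike, and 50.1% of all probes were higher in WT replicate 2. ICOS, another receptor of activated T cells and a neighbour of CTLA4 in the RefSeq gene order, was higher in WT replicate 2 by 1.07. All 13 thymocyte markers were higher in WT replicate 2, by a median of 0.38, whereas 8 of 9 macrophage markers were not, with a median of -0.50, and the 4 fibroblast markers had a median of -0.97. Whether these marker differences bear on CTLA4, CD40LG and FOXP3 was not tested.

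**Figure D3:**
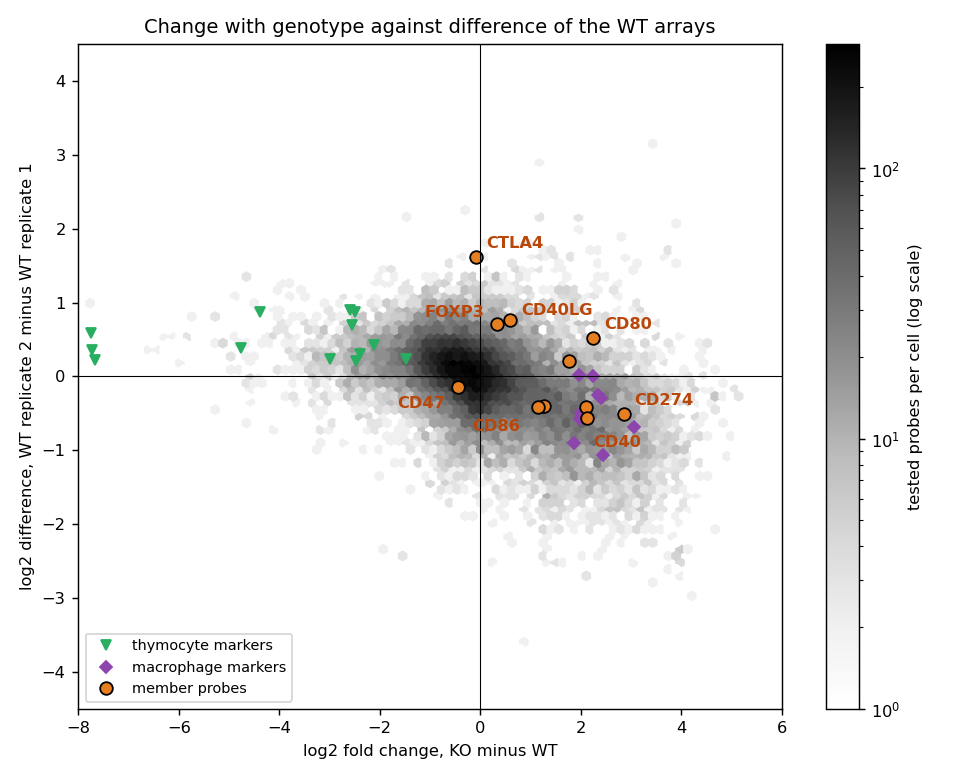
Log2 fold change of each tested probe (KO minus WT, horizontal) against the log2 difference between the WT arrays (replicate 2 minus replicate 1, vertical). Grey cells count all 31959 tested probes, of which 48 lie outside the axes, orange circles are the 11 tested member probes, and green triangles are the thymocyte markers. CTLA4 lies at 1.61 on the vertical axis with a change near 0, CD40LG and FOXP3 lie above 0, and CD86, CD274 and CD40 lie below 0 with most macrophage markers (purple).

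A further reading, chosen after the values were seen, set the members against marker genes of the same array, which removes the scaling of arrays. The mean log2 signal of CD3D, CD3E and CD3G, which encode chains of the T cell receptor complex, was subtracted from the T cell members. Relative to it, CTLA4 was at -5.62 and -5.56 in KO and -8.48 and -7.18 in WT, CD40LG at -3.72 and -3.89 against -6.95 and -6.50, and FOXP3 at -6.24 and -6.24 against -9.10 and -8.70. The KO arrays were above the WT arrays for all 3 genes. The differences of the means were 2.24, 2.92 and 2.66 log2 units, and over 12 alternatives they ranged from 1.59 to 2.89, from 2.55 to 3.15 and from 2.19 to 2.86. Median scaling, the filters on dim probes and the blocks cannot move such differences, so that the ranges come from the other alternatives. The CD3 chains themselves were lower in KO by 2.12 to 2.48 log2 units. Before the subtraction CTLA4, CD40LG and FOXP3 changed by -0.092, 0.59 and 0.33, so that most of each difference comes from the subtracted chains. In WT replicates 1 and 2 the FOXP3 spot was 1.27 and 2.38 times the lowest signal well above background. A fall as large as that of the CD3 chains would have taken FOXP3 below that limit in KO. CTLA4 was at 1.95 times in WT replicate 1. No test was made of these differences.

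The members of the presenting cell side were set in the same way against the 9 macrophage markers. Relative to their mean log2 signal CD86 was lower in KO, at -3.55 and -3.76 against -2.71 and -2.64 in WT, a difference of -0.98 that ranged from -1.13 to -0.87 over the alternatives. CD274 was at -2.49 and -3.08 in KO against -3.37 and -3.41 for WT, a difference of 0.60 that ranged from 0.30 to 0.90. The genotypes overlapped for CD80, with a difference of -0.0061, and for CD40, with -0.15, and both turned sign without KO replicate 2 (0.22 and 0.091). Under normexp CD80 was at -0.97. These references are means, single macrophage markers changed by 1.87 to 3.06 log2 units beside 2.86 for CD274, and no test was made of the differences. The endothelial, fibroblast and epithelial markers had median log2 fold changes of 2.24, 2.26 and 1.98, beside 2.24 for the macrophage markers. The B cell markers had a median of -3.44 and XCR1 changed by 1.14. The members were not set against these other lists.

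The related genes were described through 6 lists with 85 genes, of which 30 had a named probe, and all of these were tested. Of the 30, 9 were higher and 3 lower in KO and 18 were not called, with a median log2 fold change of 0.30 beside 0.0025 over all named genes. Among all named genes tested 25.2% were higher and 12.5% were lower, so that these counts were close to the background. In the CD28 and B7 families 1 of the 2 tested genes was called, PDCD1LG2. ICOS read 2.45 and 2.66 in KO and 3.32 and 4.38 in WT, with a log2 fold change of -1.30 ± 0.40 that missed the limit (adjusted p = 0.0539 by limma). It passed under 6 alternatives, among them the replicate block and the fit without WT replicate 1, at -1.83. CD28 and ICOSLG had no named probe.

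Among the TNF receptor costimulators and their ligands, 2 of 4 tested genes were higher and none was lower. CD70, the ligand of CD27, read -0.36 and -0.25 in KO against -2.35 and -2.33 in WT, a change of 2.03 ± 0.15 (adjusted p = 0.00245 by limma). TNFSF13B (BAFF), a survival factor of B cells, changed by 1.96 ± 0.29 (adjusted p = 0.00861). Both genes separated the genotypes. The 4 tested genes of CD40 signalling had a median log2 fold change of -0.25. NFKB1, which encodes a subunit of NF-κB, was higher by 1.28 ± 0.18 (adjusted p = 0.00828 by limma). TNFAIP3, an inhibitor of NF-κB, was lower by 1.01 (log2 fold change -1.01 ± 0.26, adjusted p = 0.0353 by limma). NFKBIA and TRAF6, the other genes tested, were not called, at 0.31 and -0.82. The call of NFKB1 was lost when either KO array was left out, with changes of 1.22 without KO replicate 1 and 1.33 without KO replicate 2. TNFAIP3 lay at the 2-fold limit, with -1.13 without KO replicate 1, -0.90 without KO replicate 2 and -0.72 without WT replicate 2. Each of these fits ended its call, as did the replicate block (adjusted p = 0.0618 by limma).

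Of 5 other checkpoint genes tested, LAG3, an inhibitory receptor that binds MHC class II, was the 1 called. It read 0.93 and 1.16 in KO and -1.08 and -1.60 in WT, and was higher by 2.39 ± 0.24 log2 units (adjusted p = 0.00391 by limma). Of 4 tested partners of CD47, ITGAV, an integrin chain, fell, with a log2 fold change of -1.14 ± 0.17 (adjusted p = 0.00935 by limma). That call ended when either KO array was left out. The change of ITGAV ranged from -1.27 to -1.01 with 1 array left out. THBS1, the secreted ligand of CD47, had a log2 fold change of -0.039 and its arrays overlapped.

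Of 11 tested genes linked to regulatory T cells, 4 were higher, 1 was lower and 6 were not called, with a median log2 fold change of 0.49, counts that also lay near the 25.2% and 12.5% of all named genes. IL10, an anti-inflammatory cytokine, read 0.63 and 0.81 in KO and -1.94 and -1.98 in WT, and was higher by 2.68 ± 0.16 (adjusted p = 0.00208 by limma). ENTPD1 (CD39), an ectoenzyme that degrades extracellular ATP, was higher by 2.32 ± 0.28 (adjusted p = 0.00541). Both are also made by macrophages, whose markers were higher in the same arrays, and their part in these changes was not tested. IL2RA (CD25), the IL-2 receptor chain of regulatory T cells and of early thymocytes, read -3.89 and -3.49 in KO and -4.70 and -5.22 in WT, and was higher by 1.26 ± 0.27 (adjusted p = 0.0210). Its call was lost without KO replicate 1 (change of 1.46) or KO replicate 2 (1.07). The change was 0.40 with normexp (adjusted p = 0.131 by limma), 0.94 with quantile normalization and just under the limit with median scaling (adjusted p = 0.0281). STAT5A had a log2 fold change of -0.063 (adjusted p = 0.772 by limma) and its arrays overlapped. STAT5B, which carries the IL-2 signal to the nucleus, fell, with a log2 fold change of -1.06 ± 0.20 (adjusted p = 0.0167 by limma), at the 2-fold limit. Its call was lost without KO replicate 1 (-0.96), without KO replicate 2 (-1.16) and without WT replicate 2 (-0.88, under 2-fold). Its change was also under 2-fold with quantile normalization, normexp and the deposited log2 values (-0.97, -0.98 and -0.97).

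**Figure D4:**
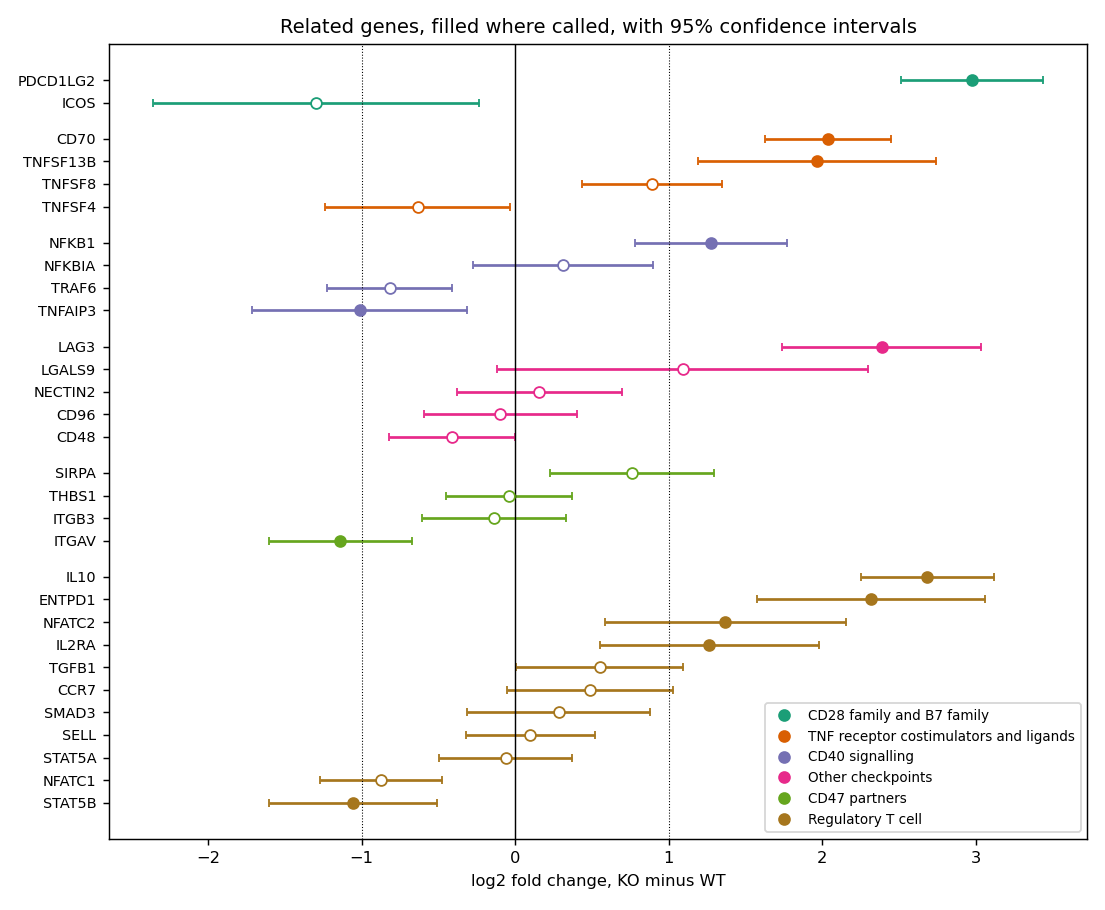
Log2 fold change, KO minus WT, of the 30 tested genes of the related lists, with 95% confidence intervals from limma. Colours are the lists, filled points were called and open points were not, and dotted lines mark 2-fold. PDCD1LG2 at 2.98, IL10 at 2.68 and LAG3 at 2.39 have the largest rises, and the interval of ICOS, from -2.36 to -0.24, is the widest among the genes below 0.

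The named genes with the pattern most like each member were found by the Euclidean distance of their log2 signals over the 4 arrays, each gene centred on its own mean, among 2701 other genes. For CD80 they were IL1A (distance 0.083), an inflammatory cytokine, LMO3 (0.19) and ENTPD1 (0.21). For CD40 they were TEAD1 (0.048), TLR2 (0.082), an innate receptor of myeloid cells, and B3GALNT1 (0.089). Such short distances mean nearly the same value on each array after centring, which with 4 arrays many genes can reach. CD86 was closest to CCND2 (0.087), ARSA (0.091) and CFL2 (0.097), and CD274 to KLF5 (0.099), GATM (0.11) and CKMT2 (0.14). CD40LG was closest to GCSAM (0.079), SLC26A11 (0.10) and ID4 (0.13), and FOXP3 to AMCF-II (0.14), ITGAL (0.15), a lymphocyte integrin chain, and PMM1 (0.17). CD47 was closest to the ribosomal protein genes RPL7 (0.022) and RPL10A (0.031) and to CEBPG (0.036). CTLA4 had no gene nearer than S100G at 0.35, followed by FUT11 (0.40) and ALDH5A1 (0.44). Among the 8 members the closest pair was CD40LG and FOXP3 (0.29), followed by CD80 and CD40 (0.67).

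**Figure D5:**
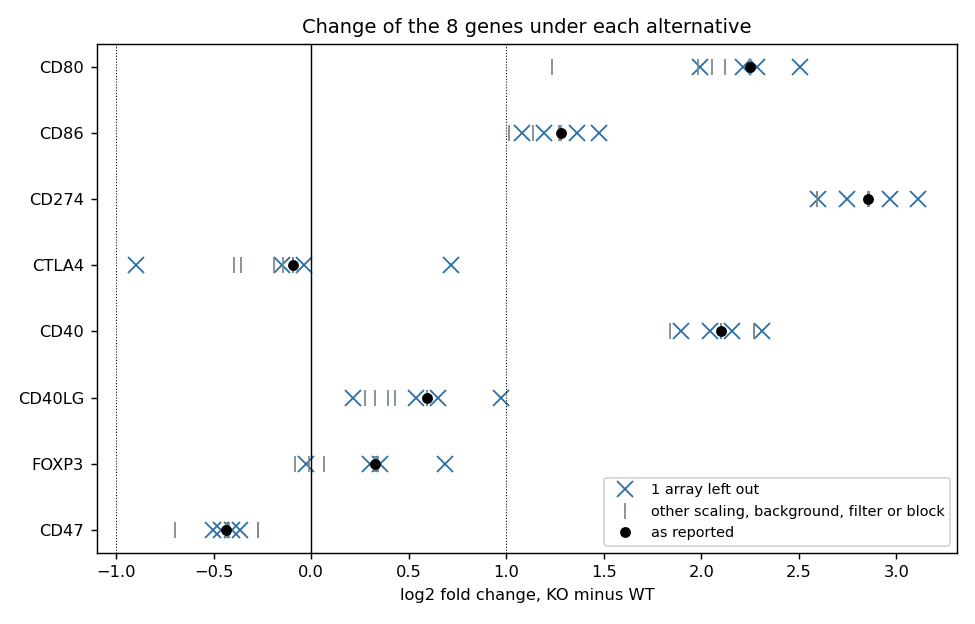
Log2 fold change, KO minus WT, of the brightest probe of each of the 8 genes as reported (black points), with 1 array left out (blue crosses) and with another scaling, background correction, filter, source or block (grey ticks). Dotted lines mark 2-fold. CD80, CD86, CD274 and CD40 stay above 1 throughout, CTLA4 runs from -0.90 to 0.71, FOXP3 crosses 0, and CD47 stays below 0.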

How the data were processed

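Thymus RNA of KO and WT pigs, as 2 samples per genotype, was measured on 4 Agilent arrays with 43803 spots (43603 probes). Per the labels the label is Cy3 alone and the scanner output holds 1 channel, whereas the methods name Cy-3 and Cy-5, so that KO and WT were compared between arrays. The authors deposited the intensity of each spot from Agilent Feature Extraction 11.0.1.1, after subtraction of background but without scaling of arrays to each other, and a table of log2 values, which on inspection held quantile normalized signals of 27974 probes. The normalization is not given in the sources used here.

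Controls and outlier spots were dropped, which removed 6 probes. The log2 processed signal minus the 75th percentile of each array was averaged over spots of a probe. No spot was saturated, and 67.9% to 74.5% of probes were well above background. The 31959 probes for which at least 1 genotype had both arrays well above background were fitted with limma 3.58.1 in R 4.3.3 (lmFit, eBayes, KO minus WT, no covariate), and the fit was tested on simulated data. Plots used Python 3.11.15, pandas 2.3.3 and matplotlib 3.10.9. A RefSeq table of Sscrofa11.1 named 6686 of 7111 probes with a RefSeq accession, in 3020 genes. The probe with the highest mean signal stood for its gene. A gene without a named probe may still be on the array.

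The members, the lists and the tests were chosen with earlier results of these data known. Named are all probes of the 8 genes, the targeted gene, known partners of the members, the 2 called genes of each related list that rose most and the 2 that fell most, the 3 genes nearest in pattern to each member, and marker genes. THBS1, NFKBIA, TRAF6 and STAT5A were named after their values were seen. The result of 1 marker gene is not reported here, and its list was computed without it. Alternatives were quantile or median scaling, normexp with an offset of 50 (on the median spot intensity, which the files give), the deposited log2 table, no filter on dim probes or a filter on all 4 arrays, a block for the slide or for the replicate number, the methods' unpaired t-test, an intensity trend and each array left out. The number of arrays limits the precision. Leaving out 1 array leaves the spread within a genotype to the other genotype alone. Calls lost or gained in such a fit need not reflect a different size of change. The deviations of same-numbered samples correlated at r = -0.29 over the probes, and those of samples on the same slide at r = 0.29. With 2 arrays per genotype these are 1 value with its sign turned. It cannot tell an effect of the slide from a likeness between single samples.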

Additional observations from a re-analysis of the deposited data

How the results depend on the processing

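The 7 member probes called higher stayed 7 under quantile normalization, the deposited log2 table, both filters, the slide block, the replicate block and the intensity trend, were 6 with median scaling and 5 with normexp, and ranged from 5 to 7 with 1 array left out. No member probe was lower under any of them. By the methods' t-test 7 were called without adjustment (p under 0.05) and 0 with Benjamini-Hochberg or Bonferroni adjustment, where limma called 7. The log2 fold changes of CD80 (2.25), CD86 (1.28), CD274 (2.86) and CD40 (2.10) are the same in this test, with Benjamini-Hochberg adjusted p values of 0.0673, 0.0876, 0.0611 and 0.0625, on 2 arrays per genotype and without the spread pooled by limma. With 1 array left out, CD86 ranged from 1.08 to 1.48, CTLA4 from -0.90 to 0.71 and FOXP3 from -0.026 to 0.68, and FOXP3 was -0.0094 with quantile normalization and -0.080 with normexp. Beyond TNFAIP3, which the replicate block ended, and ICOS, which it added, the replicate block changed no call named here.

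Over all probes 10876 were called (6726 higher, 4150 lower). These were 10773 with the replicate block, 11152 with the slide block, 6609 with normexp (3933 and 2676), 1413 by the methods' t-test with Benjamini-Hochberg (687 and 726) and 1 with Bonferroni (0 and 1), and 6095 to 12687 with 1 array left out (4014 to 7578 higher, 2081 to 5109 lower, both lowest without KO replicate 2, and 6456 in all without KO replicate 1). Median scaling gave 6365 lower, so that 47.7% of calls were higher, against 61.8%. The 9 related genes called higher were 3 and 0 by the t-test with Benjamini-Hochberg and Bonferroni (7 unadjusted) and 6 to 10 with 1 array left out. The 3 called lower were 1 with quantile normalization, 6 with median scaling, 2 with normexp, with the deposited table and with no filter, 0 by the adjusted t-tests (2 unadjusted), and 0 to 4 with 1 array left out, 0 without either KO array. Relative to the macrophage markers, CD80 ranged from -0.50 to 0.49 with 1 array left out (0.22 without KO replicate 2, 0.49 without WT replicate 2) and was -0.97 with normexp, CD40 ranged from -0.40 to 0.091 (0.091 without KO replicate 2), and PDCD1LG2 was 0.72, but -0.0042 with normexp. The cause of these shifts was not tested. The spots of CTLA4 and FOXP3 were dim, and what this adds to their spread was not tested.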
